A study of Sparassis latifolia with 15 samples.

Results

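In Sparassis latifolia, 54 of the 11118 genes listed with counts, 0 included, for all RNA-seq libraries met a rule for lower levels in primordia than in mycelium. The rule also kept the mean of mycelium exposed to light for 1 h from falling far below that of dark mycelium. The members were chosen by their measured counts, expressed as CPM (the count of a gene scaled to a common library total of 1000000 reads). With d, l and p as the mean CPM of dark mycelium, lit mycelium and primordia, a member had d/p of at least 3, d/l below 1.5, its highest primordium library below its lowest dark and its lowest lit library, and at least 1 CPM in the highest primordium library. The 30 genes that the study described individually were to be left out, but 0 of them met the other conditions, so nothing was removed. The order of the libraries alone was met by 4.32% of all genes. Because all 9 libraries entered the choice, every difference below between primordia, lit mycelium and dark mycelium is a description of the chosen genes and not a finding about them.

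All libraries came from strain SP-C, grown in bags of sawdust medium, with 3 biological replicates in each group. P were primordia, labelled as 42 d old, that formed when the bags were kept on under a daily cycle of light and dark. L was mycelium given 1 h of white LED light, and the labels place it at 30 d, whereas the methods of the study describe it as the dark-grown mycelium directly after the light. D was mycelium kept in darkness for 28 d, and it is the control of both other groups. P differed from D in tissue, age and light together, and these cannot be told apart. In bulk RNA, a smaller number of the cells that express a gene and less RNA of that gene per cell cannot be told apart either.

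The cauliflower mushroom S. latifolia is an edible basidiomycete that lives on conifer wood. Its vegetative mycelium is a network of filaments, the hyphae, which digests the substrate with secreted enzymes and takes up the released nutrients. Fruiting begins when hyphae gather into knots and then into primordia, the first compact tissue of the mushroom, and in many mushrooms this step needs light, which is sensed by the white collar photoreceptors. The count tables pair the gene identifiers of the members with no description, so their products and roles are not stated here, and no gene length was at hand to compare levels between genes.

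Between 20798190 and 27706995 reads were counted in genes per library. A pair of known genes of fruiting and light sensing set D apart from the other groups but did not separate P from L. The hydrophobin SC4 (Gglean005727), a small secreted protein that coats aerial hyphae and fruiting tissue, was at 1690, 14984 and 1689 CPM in P, 389, 5540 and 2485 CPM in L, and 53.9, 34.3 and 218 CPM in D. The blue light receptor white collar 1 (Gglean010591) was at 1067, 233 and 994 CPM in P, 213, 434 and 371 CPM in L, and 108, 88.5 and 91.7 CPM in D. Both were above every dark library in all libraries of P and L, and the libraries of P and L overlapped in both. The study had picked both genes as higher in L and in P than in D from these same libraries. Their place above D was thus given by that choice and is no separate check. The glycolytic enzyme GAPDH (Gglean007906), the reference gene of the study, was at 4385, 651 and 2272 CPM in P, 3027, 891 and 1971 CPM in L, and 2872, 2447 and 1958 CPM in D, so that replicate 2 was its lowest library in P and in L. Replicate 2 of P, replicate 2 of L and replicate 3 of D deviated from their group means in the same way. Across 10700 genes, which are not independent replicates, these deviations correlated with r = 0.51 between P2 and L2, 0.36 between P2 and D3, and 0.58 between L2 and D3. These 3 libraries recur in the values of the members, and the part of their shared deviation in those values was not tested. CPM on library totals placed the median gene 0.17 higher in P and 0.23 higher in L than in D on the log2 scale, against 0.07 in P and 0.02 in L after scaling by TMM, a method that sets libraries to a common level from the bulk of their genes.

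The members took 0.208%, 0.255% and 0.261% of all counted reads in P, against 1.58%, 1.21% and 1.08% in L and 1.55%, 0.941% and 1.89% in D. The share in each library of P was thus below that in every library of mycelium. Mean levels of single members ranged from 0.684 to 516 CPM in P (median 17.8), from 7.13 to 2358 CPM in L (median 113) and from 6.40 to 3070 CPM in D (median 128). They were therefore neither all rare nor all abundant transcripts. In D, 29 members had a mean of at least 100 CPM, 18 lay between 20 and 100 CPM and 7 were under 20 CPM. The ratio d/p had a median of 4.84 and reached 53.3, with 13 members at 10 or more, 13 from 5 to 10 and 28 under 5. The ratio of L to D ran from 0.670 to 2.55 with a median of 0.869, and 37 members were below 1 and 17 above it.

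**Figure D1:**
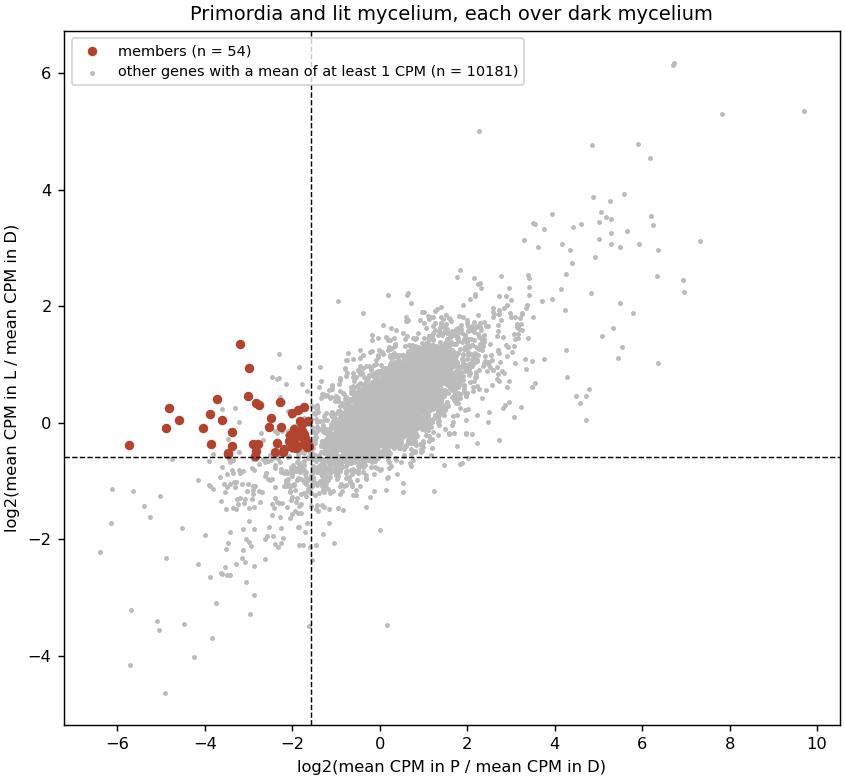
Each point is a gene, placed by the log2 ratio of mean CPM in P over D (horizontal) and in L over D (vertical). The 54 members (red) lie left of the dashed line at d/p of 3 and above the dashed line at d/l of 1.5, as the choice requires, and 10181 other genes whose mean reached 1 CPM are grey.

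Fitted over all genes with edgeR's quasi-likelihood test and Benjamini-Hochberg adjustment, P vs. D called 37 of the 54 members lower and 0 higher. A call needed an adjusted p no higher than 0.05 and more than a 1.2-fold difference. Of all genes tested in this contrast 1.97% were called lower and 1.33% higher, and since the members were chosen on it, nothing follows from the higher share. The log2 fold changes of the members lay between -5.83 and -1.73 with a median of -2.39, beside 0.07 over all genes. Among the members that edgeR did not call were Gglean007356, Gglean002752, Gglean007210, Gglean007279, Gglean009241, Gglean008098, Gglean008097, Gglean003238 and Gglean003424, all described below. Their adjusted p by edgeR's quasi-likelihood test ran from 0.0769 to 0.115, so their fold changes below are given without a call. Without D1 the test called 10 members, beside 0.495% of all genes, and without P1 16, beside 0.648%. DESeq2 called all 54 lower, beside 5.87% of all genes it tested as lower and 4.78% as higher. In P vs. L, from a fit of all 9 libraries, all 54 had a negative log2 fold change with a median of -2.02. There edgeR called 1 member lower, beside 0.0187% of all genes. DESeq2 called 46 members lower in P vs. L, beside 1.57% of all genes as lower and 1.43% as higher.

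The member called in P vs. L was Gglean004648, singled out after its values were seen. It was at 39.4, 24.1 and 30.4 CPM in P, against 267, 161 and 155 CPM in L and 130, 181 and 146 CPM in D. Its libraries of L and D overlapped, and those of P lay far below both. Its log2 fold change was -2.54 in P vs. L (SE 0.29) and -2.39 in P vs. D (SE 0.25). The adjusted p of edgeR's quasi-likelihood test for P vs. L was 0.0334, and over the alternatives it ran from 4.7e-12 to 0.179. With the replicate number as a block over all 9 libraries the call was lost, at an adjusted p of 0.0824 by the same test. On the libraries of L and P alone it was lost without a block (0.179) and with it (0.100). The call was lost as well with a stricter filter (0.0515) and without P2, L2 and D3 together (0.0653). It was also lost when L1, L3, P1 or P3 was left out, with adjusted p-values of 0.0770, 0.123, 0.0831 and 0.0972.

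In L vs. D, edgeR called 0 members in either direction, and 0.0% of all genes tested. DESeq2 also called 0 members, beside 1.85% of all genes called lower and 1.78% higher. After TMM scaling 46 of the 54 members had a negative log2 fold change of L over D, with a median of -0.43 and a range from -0.80 to 1.13, beside 0.02 over all genes. The lit group was thus on the low side of D for most members, within the limit that the choice set. The libraries of L and D overlapped for 53 members. All libraries of L were below those of D for 1 member, beside 3.48% of all genes, and all were above for 0 members, beside 19.9% of all genes. The exception, Gglean003867, was at 7.07, 11.1 and 10.5 CPM in P, 30.8, 20.9 and 27.4 CPM in L, and 32.1, 31.8 and 40.9 CPM in D.

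The 5 members with the highest mean in D differed in how steady they were. Gglean005681 was at 33.6, 35.3 and 104 CPM in P, 354, 4738 and 1984 CPM in L, and 1297, 1246 and 6668 CPM in D. It combined the highest level of D with the largest d/p of the members, 53.3, which the fit gave as a log2 fold change of -5.83 (SE 0.97). Its highest library was replicate 2 in L and replicate 3 in D, and L1 was more than 3 times below every dark library. Gglean007356 was at 248, 687 and 614 CPM in P, 2996, 948 and 1590 CPM in L, and 2671, 952 and 2373 CPM in D, with d/p of 3.87 and a log2 fold change of -2.09 (SE 0.60). Its libraries L2 and D2 were within 1.5 times of the highest library of P. Gglean002752 was at 365, 224 and 281 CPM in P, 895, 719 and 925 CPM in L, and 1162, 514 and 1239 CPM in D, with a log2 fold change of -1.87 (SE 0.45), and here D2 was the lowest of the 6 mycelium libraries.

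Gglean005348 was at 148, 209 and 131 CPM in P, 1185, 242 and 376 CPM in L, and 1201, 633 and 724 CPM in D. L2 and L3 lay below every dark library, with L2 only just above the highest library of P, while L1 was as high as D1. Its d/p was 5.24 and the fitted log2 fold change of P over D was -2.52 (SE 0.43). Gglean007210 was at 117, 127 and 33.3 CPM in P, 180, 1510 and 640 CPM in L, and 189, 436 and 1260 CPM in D, with d/p of 6.79 and a log2 fold change of -2.83 (SE 0.78). Its order of libraries resembled that of Gglean005681, with L2 highest in L and D3 highest in D.

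Next in d/p after Gglean005681 were Gglean009694, Gglean009143, Gglean008096 and Gglean007279. Gglean009694 was at 7.40, 4.10 and 16.9 CPM in P, 590, 20.8 and 173 CPM in L, and 530, 168 and 144 CPM in D, a d/p of 29.6. Gglean009143 was at 12.8, 15.4 and 17.7 CPM in P, 1367, 22.6 and 165 CPM in L, and 991, 168 and 151 CPM in D, a d/p of 28.5. In both genes L1 and D1 exceeded every other library by more than 3 times, and L2 was nearer to P than to D. Gglean008096 was at 0.385, 0.465 and 1.201 CPM in P, from 8, 11 and 28 counted reads, against 27.1, 2.92 and 21.5 CPM in L and 13.7, 22.0 and 14.1 CPM in D, a d/p of 24.3. The small counts in P leave its ratio imprecise by counting error alone. Gglean007279 was at 2.26, 0.888 and 3.90 CPM in P, 11.4, 66.0 and 30.8 CPM in L, and 17.2, 6.97 and 91.7 CPM in D, a d/p of 16.4. Its groups P and D were separated by less than 2 times at their nearest libraries, P3 and D2. The log2 fold changes of P over D were -5.07 (SE 0.80) for Gglean009694, -5.02 (SE 0.89) for Gglean009143, -4.69 (SE 0.49) for Gglean008096 and -4.13 (SE 1.02) for Gglean007279.

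**Figure D2:**
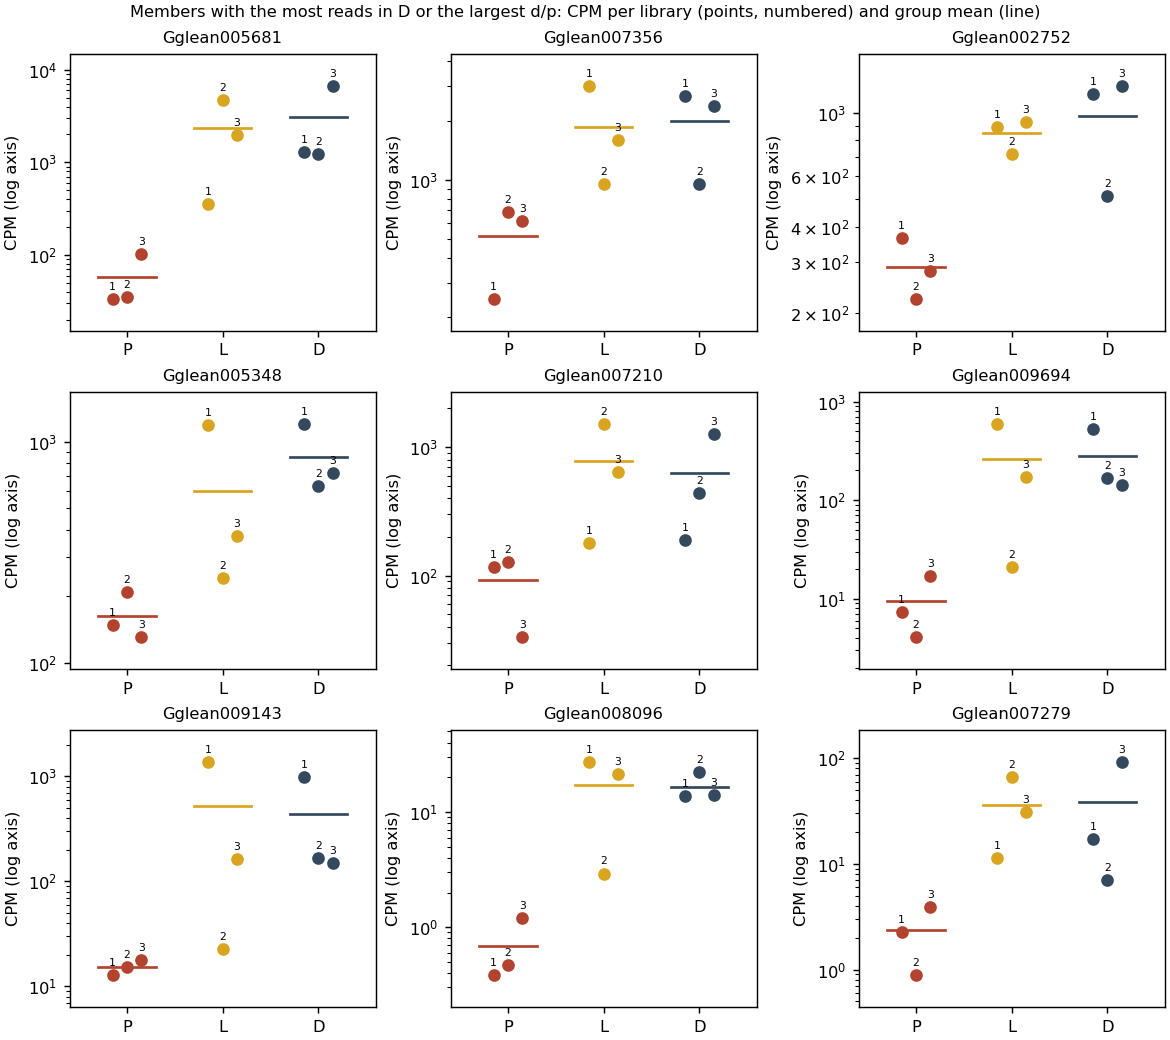
CPM on a log axis in P, L and D for the 5 members with the highest mean in D and the 5 with the largest d/p, 9 genes since Gglean005681 is among both. Numbered points are replicates and lines are group means, and every P point lies below every point of L and D, while the points of L spread widely in most of the genes.

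The libraries of lit mycelium differed from each other more than those of the other groups did at the members. The median coefficient of variation was 0.269 in P, 0.590 in L and 0.377 in D over the members, beside 0.306 in P, 0.197 in L and 0.192 in D over 10181 other genes whose mean reached 1 CPM. A mean of L near that of D could thus come from libraries that were not near it. The choice used that mean and could take in genes with a single high lit library, so their wide spread in L is in part built in. The level of a member over the mean of D had a median of 1.23 in L1, 0.535 in L2 and 0.792 in L3. Of the 54 members, 10 were below d/1.5 in L1, 31 in L2 and 16 in L3. These are 18.5%, 57.4% and 29.6% of the members, beside 5.87%, 13.6% and 4.85% of the other genes. Below the lowest dark library were 12 members in L1, 36 in L2 and 13 in L3, or 22.2%, 66.7% and 24.1%, beside 14.9%, 20.9% and 11.3% of the other genes. Above the highest dark library were 25 members in L1, 1 in L2 and 3 in L3, or 46.3%, 1.85% and 5.56%, beside 43.5%, 51.1% and 46.2% of the other genes. The share in L1 was thus near that of the other genes, and those in L2 and L3 were below it. Within 2 times of the highest library of P were 7 members in L1, 32 in L2 and 7 in L3. These are 12.96%, 59.26% and 12.96% of the members, beside 96.6%, 98.9% and 98.5% of the other genes. The members were thus less often this close to P than the other genes in each lit library, L2 included. The choice put P below L, so these lower shares are in part built in.

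**Figure D3:**
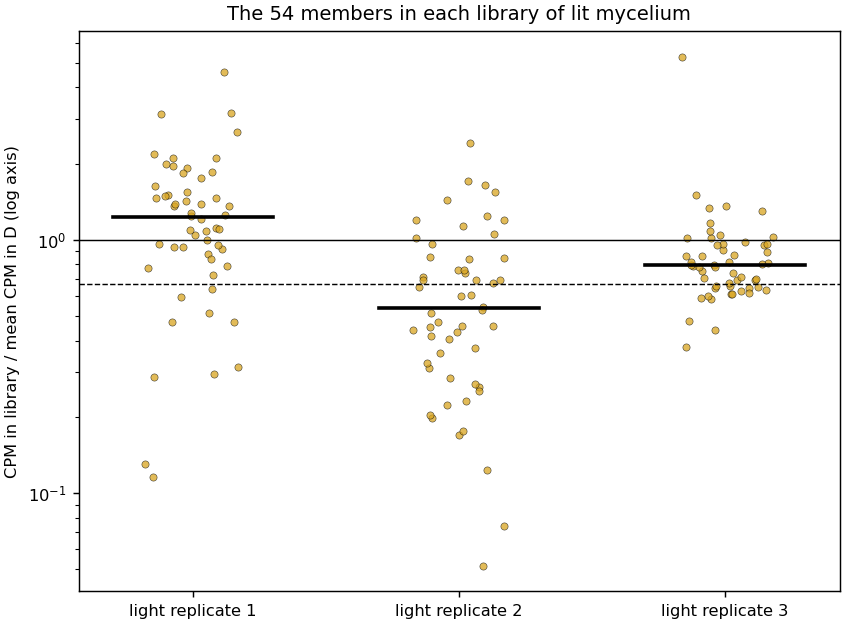
CPM of each of the 54 members in each lit library, divided by its mean CPM in D, on a log axis; the thick lines are medians (1.23, 0.535 and 0.792), the thin line is equality and the dashed line is d/1.5. In replicate 2, 31 members lie below the dashed line, against 10 in replicate 1 and 16 in replicate 3.

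The replicate that was highest in L was not spread evenly over the members. It was L1 for 37 members, L2 for 11 and L3 for 6, which is 68.5%, 20.4% and 11.1%, beside 36.6%, 44.8% and 18.6% of the other genes. The limit on d/l used the mean of L, so a gene could meet it through a single high lit library. Without L1, 29 of the 54 members still met the rule. The shares for L1 and L2 in this paragraph are thus in part built in, and how far was not tested. In D the highest replicate was D1 for 23, D2 for 10 and D3 for 21 members, or 42.6%, 18.5% and 38.9%, beside 14.9%, 46.6% and 38.5% of the other genes. Sorted by the ratio of L1 to L2, a split made after the values were seen, the members fell along a gradient. L1 was at least 3 times L2 in 25 members, or 46.3%, beside 5.67% of the other genes. In these 25 the median ratio of L1 to L2 was 4.91 and the highest 60.5, L3 lay between L1 and L2 in 24, and D1 was above D3 in 21. L2 was at least 3 times L1 in 5 members, or 9.26%, beside 2.55% of the other genes. These were Gglean005681, Gglean007210, Gglean011254, Gglean007147 and Gglean007279, and in 5 of 5 D3 was above D1, by a median of 5.34 times. Gglean011254 was at 14.7, 21.0 and 14.1 CPM in P, 23.8, 220 and 139 CPM in L, and 192, 63.7 and 296 CPM in D. Gglean007147 was at 41.4, 24.3 and 38.5 CPM in P, 56.3, 255 and 109 CPM in L, and 64.6, 70.3 and 400 CPM in D. In both, L1 was within 1.5 times of the highest library of P and below every dark library. In the remaining 24 members L1 and L2 were within 3 times of each other, with a median d/p of 3.66, against 7.17 in the first 25 and 11.1 in the 5.

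This gradient was also the main direction of variation within groups. After the mean of each group was subtracted from log2(CPM + 1), a single axis held 66.4% of the variance of the members. On it L1 stood at 0.63 and L2 at -0.65, with D1 at 0.24 and D3 at -0.31 on the same sides, and L3, D2 and the libraries of P between -0.09 and 0.11. The libraries of P therefore took little part in it. L2 and D3 are among the 3 libraries that deviated together over all genes, and P2, the remaining one of them, was at -0.03 on the axis.

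**Figure D4:**
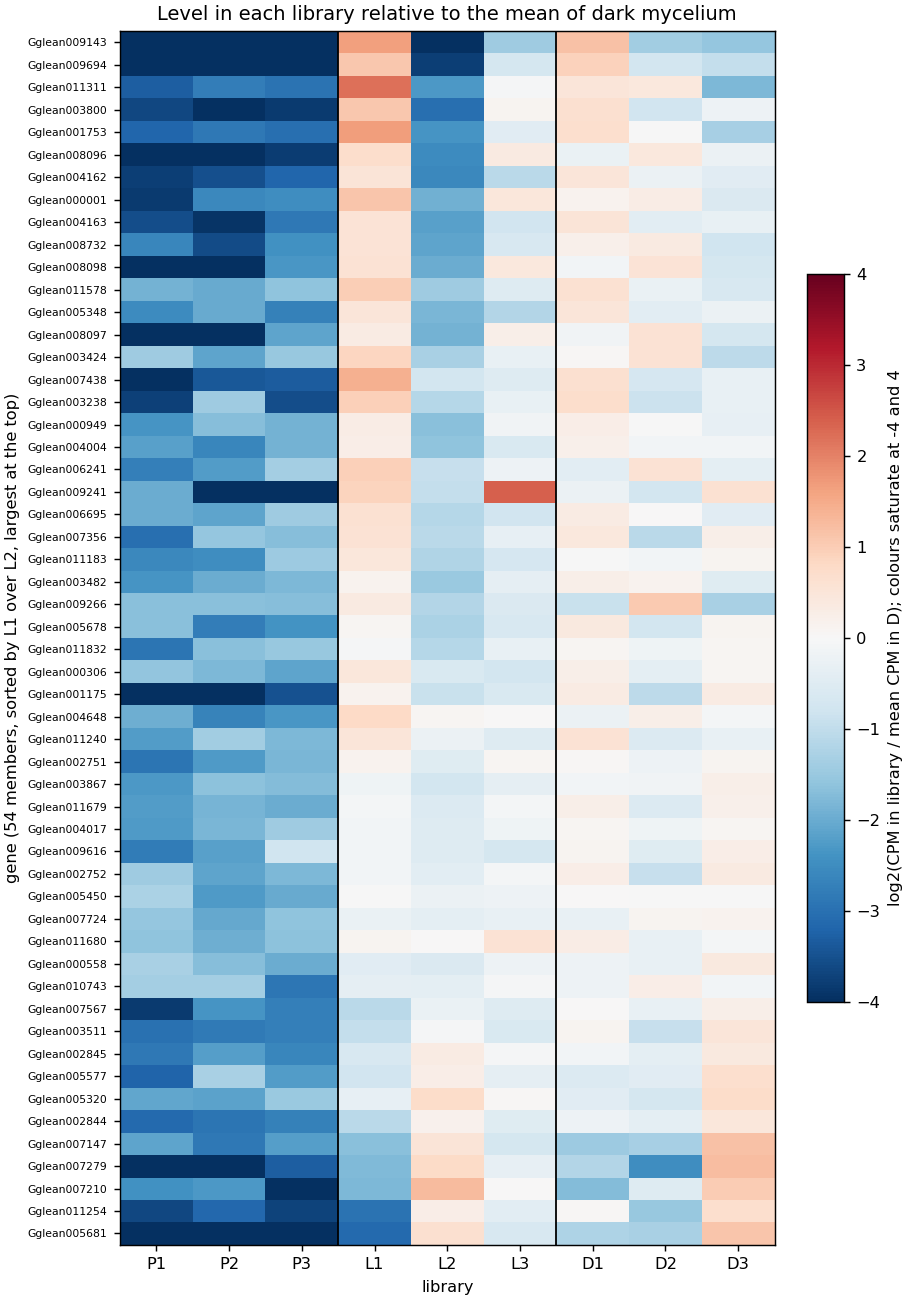
Each row is 1 of the 54 members and each column 1 library, coloured by log2 of its CPM over the mean CPM of D (red above, blue below, colours saturating at -4 and 4), with rows sorted by L1 over L2. The 3 columns of P are blue throughout, while L1 is red and L2 blue in the upper 25 rows and the reverse holds in the lowest 5.

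The 4 members with the highest ratio of L to D had 1 lit library well above the other lit libraries each. Gglean009241 was at 2.07, 0.169 and 0.429 CPM in P, 15.03, 4.16 and 42.9 CPM in L, and 6.97, 4.91 and 12.5 CPM in D, with a ratio of L to D of 2.55. Here L3 was the high library and L2 was below every dark library, and the lowest value in P rested on 4 reads. Gglean011311 was at 2.93, 4.23 and 3.73 CPM in P, 132, 5.85 and 27.6 CPM in L, and 39.8, 38.2 and 8.19 CPM in D, with a ratio of L to D of 1.92. Gglean001753 was at 17.2, 21.5 and 19.2 CPM in P, 490, 30.5 and 114 CPM in L, and 249, 154 and 61.8 CPM in D, with a ratio of L to D of 1.37. Gglean007438 was at 8.61, 26.2 and 27.2 CPM in P, 728, 166 and 190 CPM in L, and 423, 173 and 224 CPM in D, with a ratio of L to D of 1.32. In the last 3 of these L1 was the highest of all 9 libraries and L2 was below the mean of D. Their log2 fold changes in P vs. D were -3.11 (SE 0.61), -3.15 (SE 0.52) and -3.87 (SE 0.60), and that of Gglean009241 was -3.31 (SE 0.83).

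At the other end of the ratio of L to D, Gglean007567 was at 17.1, 47.7 and 36.3 CPM in P, 115, 205 and 171 CPM in L, and 245, 199 and 290 CPM in D, a ratio of 0.670. L2 was above D2 and the other lit libraries were below all of D. Its log2 fold change was -2.97 (SE 0.42) in P vs. D and -0.80 in L vs. D, where edgeR's quasi-likelihood test gave an adjusted p of 0.318. Gglean004162 was at 1.78, 2.12 and 2.66 CPM in P, 34.5, 4.08 and 11.5 CPM in L, and 34.1, 20.6 and 17.7 CPM in D, a ratio of 0.691. Its libraries of P were within 1.5 times of each other and L1 was level with D1, while L2 was within 2 times of P.

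The members with the narrowest spread over the libraries of L and D together were Gglean005450 and Gglean007724. Gglean005450 was at 96.9, 48.1 and 57.6 CPM in P, 231, 196 and 201 CPM in L, and 234, 231 and 231 CPM in D, with d/p of 3.43 and a log2 fold change of -1.89 (SE 0.32) in P vs. D. Gglean007724 was at 10.7, 7.49 and 10.3 CPM in P, 26.2, 23.6 and 25.5 CPM in L, and 25.5, 33.6 and 34.5 CPM in D, with d/p of 3.29 and a log2 fold change of -1.82 (SE 0.24). In these genes all 6 libraries of mycelium were within 1.5 times of each other and at least 2 times above the highest library of P. Here each lit library, and not their mean alone, was near the level of D.

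Within P the members differed by replicate too. The ratio of the highest to the lowest library of P was largest in Gglean008098, Gglean009241, Gglean008097 and Gglean003238, and in Gglean009241, described above, P1 was the highest. Gglean008098 was at 0.625, 2.33 and 12.4 CPM in P, 92.4, 15.8 and 83.0 CPM in L, and 57.2, 91.0 and 38.3 CPM in D. Gglean008097 was at 0.721, 1.27 and 8.58 CPM in P, 46.0, 9.89 and 43.0 CPM in L, and 33.1, 54.9 and 22.4 CPM in D. In both the spread of P came from P3, which was more than 5 times above the other libraries of P and close to L2. Gglean003238 was at 22.5, 111 and 25.7 CPM in P, 576, 136 and 242 CPM in L, and 491, 164 and 243 CPM in D, so here P2 was high and L2 was the lowest mycelium library. P3 was the highest library of P in 26 of the 54 members, P2 in 15 and P1 in 13, or 48.1%, 27.8% and 24.1%, beside 38.4%, 38.7% and 22.9% of the other genes.

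Several members had neighbouring identifier numbers. The files give no positions, so whether neighbouring numbers are neighbouring genes is not stated here, and since the sources used here do not give the strand setting of the counting, reads of overlapping genes could not be told apart. Of the 54 members 11, or 20.4%, had a number 1 away from that of another member, in 5 runs of 2 or 3, and of the 106 identifiers next to a member in number, 11.3% were members, against 0.486% of all genes. Gglean002844, for example, was at 7.74, 8.88 and 10.3 CPM in P, 31.4, 75.7 and 47.4 CPM in L, and 58.1, 51.0 and 90.7 CPM in D, and Gglean002845 was at 30.2, 46.7 and 35.4 CPM in P, 139, 270 and 209 CPM in L, and 200, 167 and 284 CPM in D. In both L2 was the highest library of L and D3 the highest of D. Neighbours kept a similar ratio of their CPM from library to library in some runs. Over the 9 libraries Gglean004163 was between 1.28 and 2.24 times Gglean004162, Gglean002845 between 3.13 and 5.25 times Gglean002844, and Gglean008098 between 0.867 and 2.01 times Gglean008097. The ratio varied more in other pairs, where Gglean008097 was between 1.59 and 7.14 times Gglean008096 and Gglean002752 between 4.31 and 19.97 times Gglean002751.

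The longest run, from Gglean008096 to Gglean008098, went on in numbers outside the members, which were looked at after the values were seen. Gglean008099 was at 0.337, 0.592 and 16.5 CPM in P, 79.9, 6.46 and 60.6 CPM in L, and 35.5, 36.0 and 15.02 CPM in D. Gglean008100 was at 4.81, 9.77 and 209 CPM in P, 477, 66.8 and 455 CPM in L, and 310, 397 and 214 CPM in D. Both met every condition but the order of the libraries, because P3 was above L2, and in the first also above D3. With the 3 members before them they had P3 as the highest library of P and L2 as the lowest of mycelium. The 2 numbers before the run, Gglean008094 and Gglean008095, were under 1.5 CPM in every library and did not have this pattern.

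**Figure D5:**
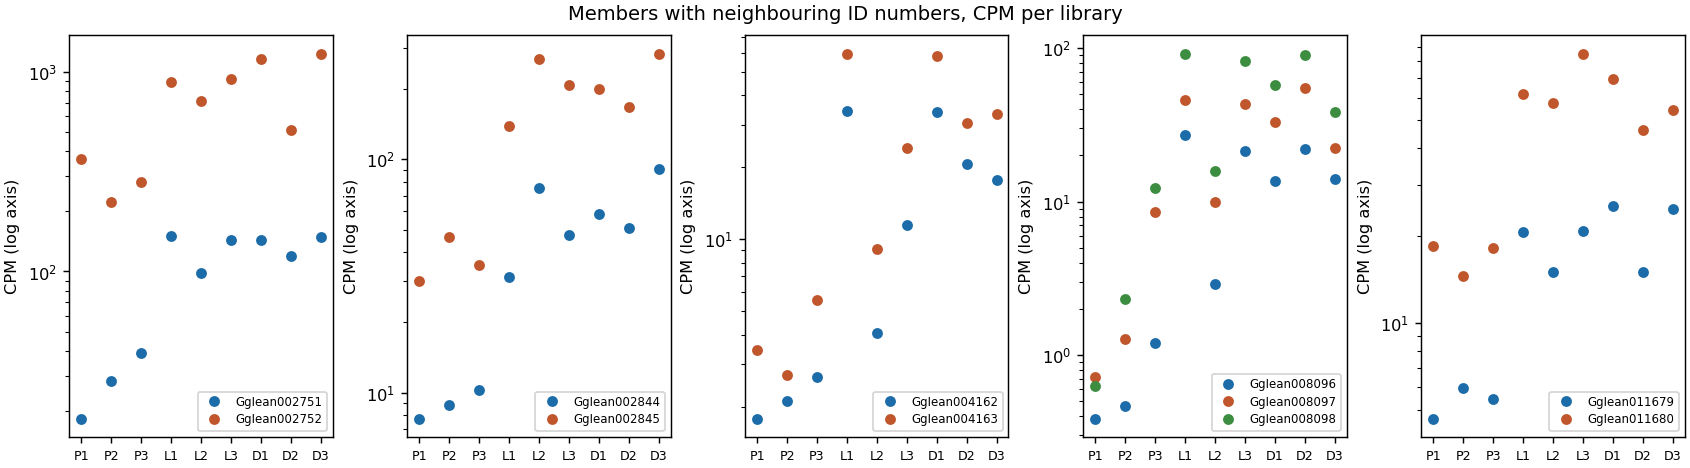
CPM on a log axis in P1 to P3, L1 to L3 and D1 to D3 for the 11 members in 5 runs of neighbouring identifier numbers. In the run from Gglean008096 to Gglean008098 P3 is the highest library of P and L2 the lowest of mycelium.

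The only values that the choice of genes had not used were those of a library left out of it. With a library of P left out, 65 genes were chosen without P1, 68 without P2 and 118 without P3. Of these, 67.7%, 67.6% and 36.4% were, in the library left out, below every library of D and L and at least 3 times below the mean of D, beside 2.91%, 6.27% and 2.11% of all genes. These shares were thus above those of all genes. The limits from D and L had, however, entered the choice, so the excess is in part built in, and how far was not tested. The limits set below for a left-out library of D or L also came from libraries used in the choice. With a library of D left out, 82.8%, 71.4% and 77.4% of the 58, 49 and 53 genes chosen without D1, D2 and D3 were at least 3 times the mean of P and above its highest library there, beside 3.45%, 3.80% and 3.13% of all genes. For lit mycelium, the share of chosen genes above every library of P and above d/1.5 in the library left out was 55.9% for L1 and 61.0% for L3, from 34 and 59 genes, beside 23.9% and 22.4% of all genes. For L2 it was 10.6%, from 142 genes, beside 27.1% of all genes. Genes chosen on L1 and L3 were therefore seldom both above every library of P and above d/1.5 in L2.

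The values next to each threshold were as follows, close on both sides for d/p and d/l and with a gap for the minimum in P. Just inside d/p of 3 were Gglean000558 at 3.09 and Gglean003424 at 3.14, and just outside it were Gglean008397 at 2.96 and Gglean000323 at 2.94. Gglean000558 was at 32.1, 23.9 and 19.8 CPM in P, 56.5, 52.7 and 67.3 CPM in L, and 68.1, 63.2 and 103 CPM in D, and Gglean003424 was at 6.01, 3.72 and 5.70 CPM in P, 29.6, 6.54 and 13.2 CPM in L, and 16.8, 23.9 and 7.84 CPM in D. Just inside d/l of 1.5 were Gglean007567 at 1.49 and Gglean004162 at 1.45, and just outside it were Gglean003818 at 1.51 and Gglean006101 at 1.53. Just inside the minimum of 1 CPM in the highest library of P were Gglean008096 at 1.201 and Gglean009241 at 2.07 CPM, and 1 gene missed that condition alone, Gglean009074 at 0.212 CPM. A single condition was missed by 354 genes for d/p, 52 genes for d/l and 66 genes for the order of the libraries.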

How the data were processed

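RNA-seq of 3 replicates per group (P, L, D) was analysed. Per the labels, reads were processed with cutadapt, STAR and HTSeq 0.6.1, and the authors deposited raw counts per gene with their own size-factor values, fold changes and p-values. Only the counts were used. The D libraries hold identical counts in both deposited tables and serve as the shared control. The differential ATAC-seq peak lists were not used, because gene positions of SP-C were not at hand. The members and lists were chosen with earlier results of these data known.

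Members were found from CPM on column totals. Differences were tested over all genes with edgeR 4.0.16 (TMM, filterByExpr, quasi-likelihood test) and DESeq2 1.42.0 in R 4.3.3. P vs. D and L vs. D used the 6 libraries of each pair, and P vs. L all 9. The SE was derived as the absolute log2 fold change without prior count divided by the square root of F and is no output of the test. P-values measure only the spread between these libraries. The procedure was tested on simulated data. Same-numbered libraries of P and L deviated together across genes (r = 0.14, 0.51 and 0.32), but P3 correlated more with L1 (r = 0.37) than with L3. Those of P and D and of L and D correlated with mixed signs. Whether the numbers pair libraries was thus not settled.

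Named members are the 5 with the highest mean in D, the 5 with the largest d/p, the 4 highest and 2 lowest in L over D, the 4 with the widest and 2 with the narrowest spread (P libraries, and L with D at a mean D of at least 10 CPM), those next to each threshold, and GAPDH. Others are said to have been chosen after their values were seen. None (0) of the identifiers matched the RefSeq-style gene table supplied, made from a different strain, so no sequence is given. Alternatives were other scalings, filters and thresholds, DESeq2, a replicate block, all 9 libraries or the libraries of a pair, and each library left out.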

Additional observations from a re-analysis of the deposited data

How the results depend on the processing

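The number of members, 54, moved to 125 at a d/p of at least 2, 26 at 5 and 35 at a stricter limit on d/l. With each library left out it ran from 34 (without L1) to 142 (without L2), and it was 118 without P3. Without P2, L2 and D3 together, chosen after seeing the data, it was 136, 46 of them members. On TMM-scaled CPM 42 genes met the rule, 37 of them members, and on DESeq2's size factors 41, 36 of them members. Members with neighbouring numbers, 11, became 7 under TMM and 7 under DESeq2's size factors, and 9 to 31 with a library left out. Members called in P vs. D by edgeR, 37, became 9 with a replicate block and 10 to 40 with a library left out (10 without D1, 16 without P1, 40 without P2). Of all genes, 1.97% were called lower in the fit reported, 0.519% with the block, 0.495% without D1, 0.648% without P1 and 3.03% without P2, so the calls over all genes moved with those of the members. In P vs. L, 1 member called, beside 0.0187% of all genes called lower, became 46 with DESeq2 (1.57%) and 5 with library totals (0.0561%). It became 0 with a stricter filter, a replicate block, or L and P libraries only (also with a block, added after seeing the data). Each of these called 0.0% of all genes lower. The count was also 0 with P2, L2 and D3 left out (0.00932% of all genes). With a library left out it was 0 to 7, with 7 without L2 (0.177%) and 5 without P2 (0.112%). In L vs. D the count was 0 under every alternative run. Over all genes the edgeR alternatives called from 0 to 15 genes in either direction, the most without L1 (15 of 10665). DESeq2 called 1.85% of all genes lower and 1.78% higher. The limit on d/l also worked against lower calls, so nothing about the members follows from the 0. Same-numbered deviations correlated at 0.14, 0.51 and 0.32 between P and L. They correlated at 0.02, -0.39 and -0.28 between P and D and at 0.27, -0.33 and -0.20 between L and D. P3 and L1, which differ in number, correlated at 0.37. With 3 libraries per group these values cannot settle whether the numbers pair libraries, so the lower counts under the block are not set aside. All named members kept a negative log2 fold change in P vs. D under the alternatives run. The choice put every library of P below those of D, so this sign was nearly fixed and is no support. In these runs the call of a named member stayed as in the fit reported 202 times, was gained 18 times and lost 44 times. Counts of 4 to 28 reads in P limit the lowest members.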

Other observations

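Beside the 54 members, 52 genes met every condition but d/l below 1.5, and these were by construction lower in the mean of lit mycelium than in dark mycelium. L1 was the highest lit library in 37 members, or 68.5%, and in 41 of the 52, or 78.8%. L1 was at least 3 times L2 in 25 members, or 46.3%, and in 12 of the 52, or 23.1%. The median coefficient of variation in L was 0.590 for the members and 0.380 for the 52, and in P it was 0.269 for the members and 0.399 for the 52. Without L2, 142 genes met the whole rule, of which 46 were members.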
